A study of Mus musculus with 6 samples.

Results

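The genes described here encode the nuclear subunits of the mitochondrial respiratory chain and the ATP synthase, measured in liver sinusoidal endothelial cells (LSECs), which form the porous wall of the liver's sinusoids. They were taken by symbol: the complex I genes *Nduf* a, b, c, s and v (without the *Ndufaf* assembly factors), *Sdha* to *Sdhd* of complex II, *Uqcr* and *Cyc1* of complex III, *Cox4* to *Cox8* of complex IV, *Atp5* of complex V, and *Cycs* for cytochrome c. Of 23282 rows by gene symbol, 87 matched: 38 for complex I, 4 for complex II, 9 for complex III, 18 for complex IV, 17 for complex V and 1 for cytochrome c. Of these, 80 averaged at least 10 counts over the 6 libraries, and the same 80 passed edgeR's filter on low counts and were tested. The other 7, *Cox4i2*, *Cox6a2*, *Cox6b2*, *Cox7a1*, *Cox7b2*, *Cox8b* and *Cox8c*, all belong to complex IV.

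LSECs of *Txnip*-/- mice (3 libraries) were compared with LSECs of WT mice (3 libraries), which asks what changes in these cells when thioredoxin-interacting protein is absent. Per the study's methods the deletion is present in the whole body on a C57BL/6J background, the controls are C57BL/6J, and LSECs were obtained by collagenase perfusion, a density gradient and magnetic beads against CD146, so an effect on these cells through other tissues of the knockout mice cannot be told apart from one within them. Neither the labels nor the methods give an age, sex or treatment for these mice. The labels do not say that the libraries of a genotype came from separate mice, and p-values then measure the spread between these libraries, which may be technical. RNA was read by QuantSeq 3′ mRNA sequencing, in which reads start near the polyadenylated end of a transcript, so each count comes from 1 transcript end and levels of different genes can be compared without a correction for length.

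Complexes I and II feed electrons from NADH and succinate to ubiquinone, complex III passes them to cytochrome c, and complex IV hands them to oxygen. Complexes I, III and IV pump protons across the inner membrane, and the ATP synthase, complex V, uses the gradient to make ATP. Most subunits are encoded in the nucleus and imported, and NRF1, GABPA (an ETS factor) and YY1 are known as transcription factors of many of their genes. Endothelial cells are known to draw much of their ATP from glycolysis, and TXNIP is known to bind thioredoxin and to restrain glucose uptake.

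Promoters are shown because NRF1, GABPA and YY1 are known as transcription factors of many of these genes. RefSeq's windows on GRCm38.p6, from 250 bases before to 50 after a transcript start, matched 71 of the 87 genes by current or older symbol, and some genes have several windows. On either strand, the NRF1 palindrome, GCGCA followed by TGCGC, lay in windows of 5 of the 71 genes (7.04%) against 1.07% of the 27025 genes in the same table, which holds genes of all kinds. The YY1 motif AAGATGGC lay in 11 (15.5%) against 3.19%, and the ETS motif CCGGAAGT in 5 (7.04%) against 4.31%. At least 1 of the 3 was present in 21 of the 71 genes (29.6%) against 8.22%. NRF1 matches were in *Atp5g2*, *Atp5k*, *Cox6a1*, *Ndufa11* and *Uqcrc1*. YY1 matches were in *Ndufa3*, *Ndufa9*, *Ndufb8*, *Ndufc1*, *Ndufs4*, *Ndufs6*, *Ndufs7*, *Atp5f1*, *Atp5j*, *Atp5j2* and *Atp5sl*. ETS matches were in *Ndufs3*, *Uqcrh*, *Uqcr11*, *Cox8a* and *Atp5h*. No match overlapped a match to another of the 3 motifs, and a match is a description of letters, not a site of binding. Among genes whose window holds one of the motifs, those with the smallest p for genotype are printed 5′ to 3′ with the motif in capitals. *Ndufs4* (chr13:114388045-114388344, minus strand) has the YY1 motif starting 35 bases after the transcript start. *Atp5j* (chr16:84834927-84835226, minus strand) has it 88 bases before the start of that window's transcript. Another *Atp5j* window (chr16:84835576-84835875), which spans the GENCODE gene start at 84835625, holds none of the 3 motifs. *Cox6a1* (chr5:115348909-115349208, minus strand) has the NRF1 motif 162 bases before the transcript start.
Ndufs4: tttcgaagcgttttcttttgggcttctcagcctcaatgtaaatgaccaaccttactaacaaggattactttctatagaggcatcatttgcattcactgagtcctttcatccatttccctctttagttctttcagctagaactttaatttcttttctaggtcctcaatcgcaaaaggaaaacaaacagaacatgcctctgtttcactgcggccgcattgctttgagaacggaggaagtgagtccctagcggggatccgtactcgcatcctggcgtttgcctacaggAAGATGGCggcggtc
Atp5j: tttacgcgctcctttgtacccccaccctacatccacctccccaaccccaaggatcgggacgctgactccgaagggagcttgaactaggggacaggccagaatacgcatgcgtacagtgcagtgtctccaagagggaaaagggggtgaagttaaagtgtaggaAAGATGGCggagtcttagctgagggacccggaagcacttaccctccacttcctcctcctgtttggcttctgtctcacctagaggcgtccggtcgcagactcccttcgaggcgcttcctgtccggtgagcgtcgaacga
Cox6a1: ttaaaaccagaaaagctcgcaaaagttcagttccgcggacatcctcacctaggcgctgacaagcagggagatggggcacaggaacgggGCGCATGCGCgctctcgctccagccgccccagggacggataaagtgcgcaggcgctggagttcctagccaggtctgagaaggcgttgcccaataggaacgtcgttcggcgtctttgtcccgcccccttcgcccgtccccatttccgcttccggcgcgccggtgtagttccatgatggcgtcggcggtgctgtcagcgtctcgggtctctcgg

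The libraries held 9147764 to 10193952 counts, and 3 counts, the floor used here, equal 0.294 to 0.328 CPM (the unit of all levels here, counts per library scaled to a common size with TMM factors). *Txnip* itself had 269, 216 and 191 counts in knockout replicates 1, 2 and 3 against 1901, 2019 and 1994 counts in WT (log2 fold change -3.02, adjusted p = 6.94e-10), so it followed the labels. Of 12 LSEC markers, all were tested and all had lower estimates in *Txnip*-/- LSECs, from -0.79 for *Lyve1* to -0.04 for *Cdh5* (log2). Of these markers *Stab1*, *Stab2* and *Mrc1* passed the test. The list summed to 4940 to 5370 CPM against 5710 to 7490 CPM in WT. *Lyve1*, the most abundant on average, was at 1475, 1642 and 1976 CPM against 3482, 3780 and 1519.5 CPM. WT replicate 3 thus lay within the *Txnip*-/- range of *Lyve1*. Of 12 Kupffer cell markers tested, all had lower estimates in *Txnip*-/- libraries (median log2 fold change -1.48) and 11 passed the test. That list summed to 306 to 340 CPM against 742 to 777 CPM. All 10 stellate cell markers tested had higher estimates, of which *Dcn* and *Acta2* passed the test, and the list summed to 64.3 to 78.8 CPM against 32.2 to 38.0 CPM. None of the Kupffer or stellate markers was at 0 in every library. Hepatocyte markers summed to 51.9 to 61.2 CPM against 49.1 to 54.4 CPM, 0 of 9 tested were called and *Tat* was at 0. In these bulk libraries fewer cells of a type and less RNA per cell cannot be told apart, and the part of these markers in the values below was not tested. The ribosomal RNA row *Rn45s* took 16.8% to 18.6% of counts in *Txnip*-/- libraries and 10%, 9.68% and 17.8% in WT, where replicate 3 was thus at the level of the knockout.

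Transcripts of the respiratory chain differed little between the genotypes. No gene of the 80 passed an adjusted p of 0.05 in edgeR's quasi-likelihood test, where 179 of 11583 tested genes (1.55%) did, and DESeq2 and limma-trend also called 0. The smallest adjusted p was 0.212, for *Ndufb4*. With an unadjusted p under 0.05 there were 5 of the 80 (6.25%) against 11.5% of all tested genes: *Ndufb3*, *Ndufb4*, *Ndufb10* and *Ndufv1* of complex I with lower estimates and *Cyc1* of complex III with a higher one. Among all tested genes, 6.05% passed that threshold with a lower and 5.48% with a higher estimate. That share depended on WT replicate 3: without it, 15 of the 80 genes (18.8%), 10 lower and 5 higher, had an unadjusted p under 0.05 against 14.2% of all tested genes. It was also above the share of all tested genes without normalization factors, with 13 lower and 0 higher (16.2% against 12.8%). In that setting 10.1% of all tested genes passed with a lower estimate.

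The estimates were also narrow. Log2 fold changes (*Txnip*-/- over WT) ran from -0.60 for *Atp5s* to 0.33 for *Cyc1*, with a median of -0.05 where all tested genes had a median of -2.75e-05, and 49 estimates were below and 31 above 0. Without normalization factors, which moved the median of all tested genes to -0.08, 65 were below and 15 above. Only *Ndufb3* and *Atp5s* had an estimate beyond 1.3-fold. The 95% interval lay within 1.5-fold in both directions for 74 of the 80 genes and within 1.3-fold for 54, so a difference of more than 1.5-fold was outside the interval for those 74. The median half-width of the interval was 0.24 on the log2 scale against 0.40 over all tested genes, and the genes were also more abundant, with a median level of 105.5 CPM against 23.5 CPM. The groups did not overlap for 11 of the 80 genes (13.8%), 7 lower and 4 higher, against 17.4% of all tested genes, 8.94% lower and 8.43% higher. The 11, listed after their values were seen, were *Ndufb4*, *Ndufb10*, *Ndufv1*, *Ndufs4*, *Uqcrb*, *Cox6a1* and *Atp5k* on the lower side and *Uqcr10*, *Atp5a1*, *Atp5d* and *Cycs* on the higher side.

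**Figure D1:**
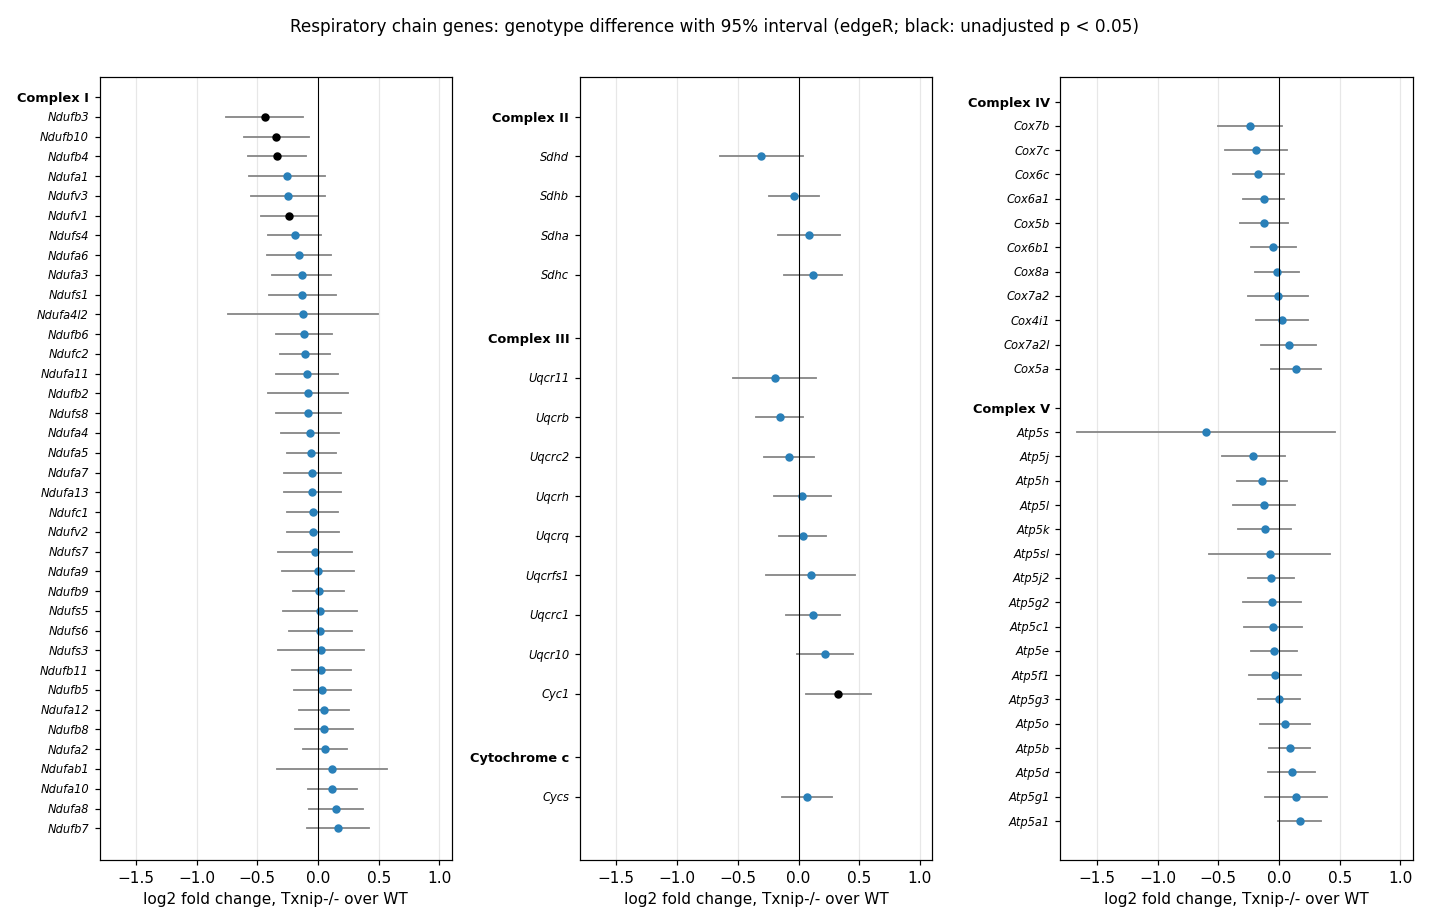
Log2 fold change of the tested respiratory chain genes (1 of them left out; x axis, *Txnip*-/- over WT) with its 95% interval, one row per gene and grouped by complex. Black points mark the 5 genes with an unadjusted p under 0.05. Only *Ndufb3* and *Atp5s* have an estimate beyond 1.3-fold, and the widest intervals belong to the low-count genes *Atp5s* and *Ndufa4l2*.

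The sums by complex, which abundant genes dominate, did not all follow the medians: complexes I, IV and V had nearly equal medians near -0.05, but complex V had no lower sum. Complex I transcripts summed to 3599, 3547 and 3584 CPM in *Txnip*-/- replicates 1, 2 and 3 and to 3721, 3766 and 3699 CPM in WT. The groups did not overlap, with a ratio of 0.959, and did not overlap either under RLE or upper quartile factors, without factors, or without *Rn45s*. Complex IV summed to 2288, 2287 and 2220 CPM against 2289, 2343 and 2454 CPM, also a ratio of 0.959, but the nearest libraries of the groups were almost equal, and the groups overlapped under RLE and upper quartile factors. Complex II (475.5 to 550.4 against 502.5 to 530.5 CPM), complex III (1174 to 1243 against 1141 to 1249 CPM) and complex V (2759 to 2847 against 2751 to 2842 CPM) overlapped. All genes together summed to 10630, 10410 and 10370 CPM against 10540, 10710 and 10780 CPM, which overlap. No p is given for these sums, since they are scores over a chosen list.

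**Figure D2:**
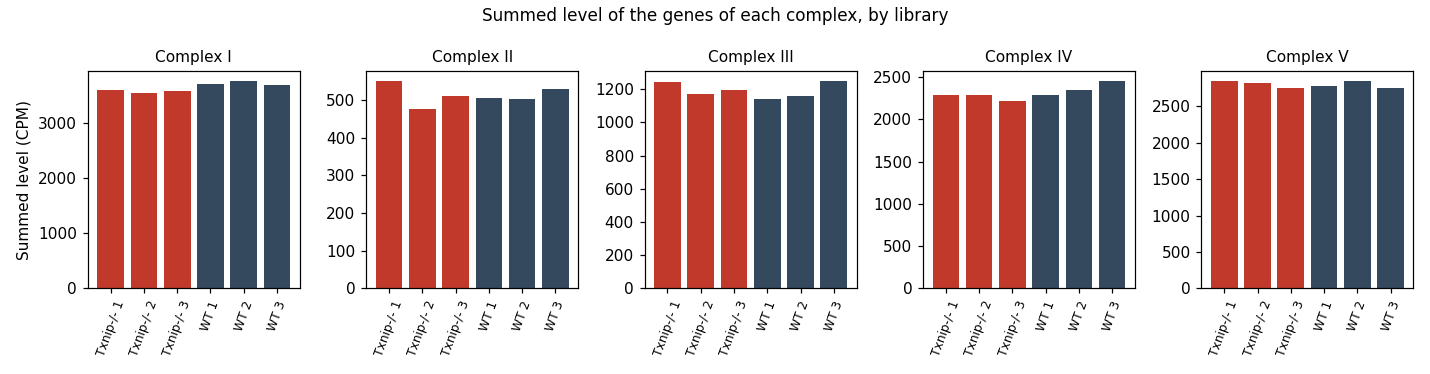
Summed level in CPM (y axis, from 0) of the genes of complexes I to V in each of the 3 *Txnip*-/- (red) and 3 WT (dark blue) libraries. For complex I the *Txnip*-/- bars, at most 3599 CPM, are all below the WT bars, at least 3699 CPM. For complexes II, III and V the genotypes overlap.

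As a share of all counts, the 87 genes held 1.04%, 1.001% and 1.007% in *Txnip*-/- libraries and 1.111%, 1.13% and 1.051% in WT, a ratio of 0.927 without overlap. With the *Rn45s* row left out of the total the shares were 1.25%, 1.23% and 1.21% against 1.24%, 1.25% and 1.28%, a ratio of 0.982, and the genotypes overlapped. The 95% Wilson intervals of the first shares ran from 0.9953% to 1.008% for the lowest library and from 1.123% to 1.136% for the highest, and cover counting error only.

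Complex I, the NADH dehydrogenase, had 38 genes with a median log2 fold change of -0.05, of which 25 were lower and 13 higher. The 4 with an unadjusted p under 0.05 were 10.5% of 38, beside 11.5% of all tested genes. All 4 were lower, where 6.05% of all tested genes passed with a lower estimate. *Ndufb4*, an accessory subunit of the membrane arm (chr16:37647170-37654453, minus strand, GENCODE M21), had 55.3, 54.0 and 57.1 CPM in *Txnip*-/- replicates 1, 2 and 3 and 66.5, 73.8 and 69.8 CPM in WT. The highest *Txnip*-/- library was below the lowest WT library, and the log2 fold change was -0.34 ± 0.11 (SE, adjusted p = 0.212).

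*Ndufb10*, also a membrane arm subunit (chr17:24722060-24724478, minus strand), was at 41.5, 46.2 and 46.7 CPM against 53.1, 55.2 and 62.4 CPM, again without overlap (log2 fold change -0.34 ± 0.13, adjusted p = 0.280). *Ndufv1* encodes the core subunit that binds NADH and FMN (chr19:4007384-4012806, minus strand). It was at 86.0, 76.9 and 82.8 CPM against 90.8, 91.5 and 108 CPM (-0.24 ± 0.11, adjusted p = 0.405). The groups did not overlap, with WT replicate 3 the highest library.

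*Ndufb3*, likewise of the membrane arm (chr1:58586384-58595964, plus strand), had the lowest estimate in complex I, but its WT libraries disagreed. It was at 139, 99.8 and 123 CPM in *Txnip*-/- libraries and at 183, 189 and 119 CPM in WT, so WT replicate 3 lay within the *Txnip*-/- range. The log2 fold change was -0.44 ± 0.15 (adjusted p = 0.224), -0.62 without WT replicate 3 (adjusted p = 0.00283) and 0.01 with a term for WT replicates 1 and 2. With no filter on low counts *Ndufb3* was called at -0.45 (adjusted p = 0.00328). At least 75 bases within the last 300 of *Ndufb3* are at least 95% identical to the pseudogene *Gm45930*, which is called a near-identical copy here. Since reads with several alignments were counted, the counts of *Ndufb3* can include reads of that copy.

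**Figure D3:**
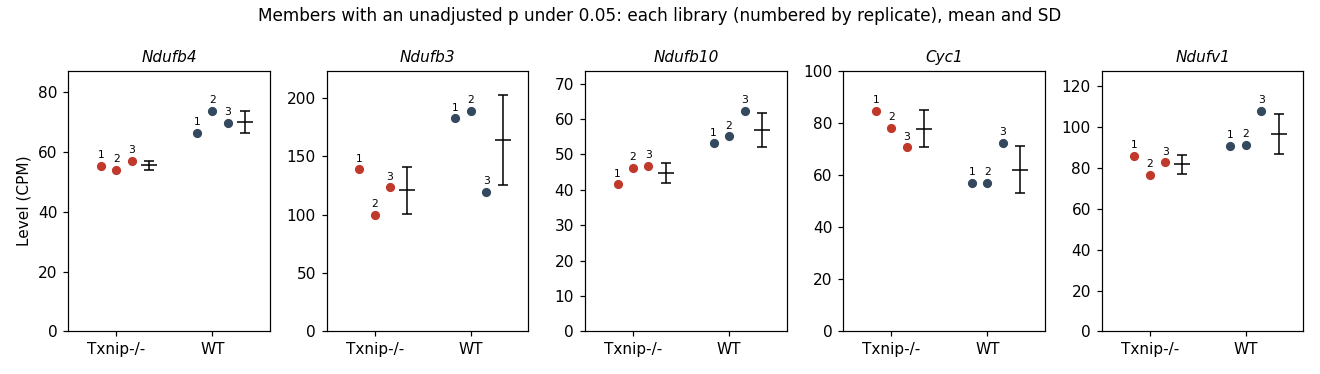
Level in CPM (y axis, from 0) of the 5 genes with an unadjusted p under 0.05 in each library, numbered by replicate, with the mean and SD of each genotype (n = 3). *Ndufb4*, *Ndufb10* and *Ndufv1* do not overlap, whereas WT replicate 3 falls among the *Txnip*-/- libraries for *Ndufb3* (119 CPM) and *Cyc1* (72.6 CPM).

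The 31 genes of complex I outside its core, taken by symbol, had a median log2 fold change of -0.05, with 19 lower and 12 higher estimates. Their median level was 97.5 CPM. They include *Ndufa4*, which is known to sit in complex IV, and its relative *Ndufa4l2*, both with lower estimates. The most abundant complex I transcript was *Ndufa2*, at 271, 250 and 247 CPM against 252, 243 and 244 CPM. *Ndufb7* had the highest estimate (0.16 ± 0.12) and overlapped between genotypes. *Ndufs4*, whose promoter is printed above, was at 93.3, 91.1 and 88.5 CPM against 111, 108 and 93.4 CPM (-0.19 ± 0.10, adjusted p = 0.510), the nearest libraries being *Txnip*-/- replicate 1 and WT replicate 3.

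Complex II, succinate dehydrogenase, also works in the citric acid cycle. Its 4 genes had a median of 0.02, and none passed the unadjusted threshold. *Sdhb*, the iron-sulfur subunit, was the most abundant at 230, 192 and 214 CPM against 205, 209 and 239 CPM (-0.04 ± 0.10). *Sdha*, the flavin subunit, was at 145, 123 and 139 CPM against 131, 103 and 149 CPM (0.09 ± 0.12). The genotypes overlapped for both.

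The membrane anchors of complex II were *Sdhc*, at 128, 104 and 117 CPM against 105, 120 and 96.9 CPM (0.12 ± 0.11), and *Sdhd*, at 47.1, 56.8 and 41.1 CPM against 64.0, 70.02 and 45.5 CPM. *Sdhd* had a log2 fold change of -0.31 ± 0.16 (adjusted p = 0.489), and WT replicate 3 was again at the level of the *Txnip*-/- libraries. The order of levels, *Sdhb* above *Sdha* above *Sdhc* above *Sdhd*, was the same in the genotype means, although *Sdha* and *Sdhc* overlapped across libraries.

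Complex III, which moves electrons from ubiquinol to cytochrome c, had 9 genes with a median of 0.03, of which 6 were higher and 3 lower. *Cyc1*, the haem-bearing cytochrome c1 (chr15:76343523-76346260, plus strand), was at 85.0, 78.3 and 70.9 CPM in *Txnip*-/- libraries and 57.0, 57.1 and 72.6 CPM in WT. Its log2 fold change was 0.33 ± 0.13 (adjusted p = 0.299), and 0.45 without WT replicate 3 (adjusted p = 0.0508). WT replicate 3 was above *Txnip*-/- replicate 3, so the groups overlapped.

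*Uqcrfs1*, the Rieske iron-sulfur protein, was at 57.8, 45.8 and 64.1 CPM against 49.3, 67.2 and 40.0 CPM (0.10 ± 0.17). Of the small subunits, *Uqcr10* was at 125, 105 and 113 CPM against 88.1, 102 and 105 CPM (0.22 ± 0.11, adjusted p = 0.456), its nearest libraries nearly equal, and *Uqcrb* was at 160, 184 and 166 CPM against 190, 191 and 186 CPM (-0.15 ± 0.09). These 2 small subunits thus had estimates of opposite sign. The core proteins *Uqcrc1* and *Uqcrc2* had estimates of 0.12 and -0.08. *Uqcrq* was the most abundant (308, 284 and 254 against 271, 272 and 283 CPM) and *Uqcr11* the least, at 44.3, 39.7 and 42.7 CPM against 36.6, 48.5 and 60.0 CPM (-0.20 ± 0.16).

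*Cycs*, the mobile carrier cytochrome c, was at 99.7, 97.2 and 106 CPM against 97.2, 95.2 and 95.8 CPM, with a log2 fold change of 0.07 ± 0.10. The groups were in contact rather than apart, *Txnip*-/- replicate 2 and WT replicate 1 being almost equal.

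Complex IV, cytochrome c oxidase, had 11 tested genes with a median of -0.05, of which 8 were lower and 3 higher, and none passed the unadjusted threshold. It was the complex with the most abundant genes at the median (182.6 CPM). *Cox6a1*, whose NRF1 motif is printed above, had the highest level of all respiratory chain genes, at 487, 462 and 473 CPM against 490, 518 and 544 CPM. Its groups did not overlap, though the nearest libraries were close, with a log2 fold change of -0.13 ± 0.08 (adjusted p = 0.592). *Cox7b* had the lowest estimate (96.4, 103 and 97.2 against 128, 130 and 91.8 CPM, -0.24 ± 0.12, adjusted p = 0.482), and *Cox5a* the highest (167, 197 and 186 against 178, 169 and 154 CPM, 0.14 ± 0.10). For *Cox7b* WT replicate 3 was the lowest of the 6 libraries.

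The tissue isoforms of complex IV were almost absent. *Cox6a1* had 4360 to 5441 counts per library and *Cox6a2*, its heart and muscle partner, at most 10, between 0% and 0.22% of the pair. *Cox7a1*, another heart and muscle form, had at most 8 counts beside 2621 to 3543 of *Cox7a2* (0% to 0.292%), and *Cox4i2*, a form known from lung and low oxygen, at most 8 beside 2097 to 2586 of *Cox4i1* (0% to 0.38%).

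*Cox8b* had at most 2 counts beside 1861 to 2155 of *Cox8a*, and the testis form *Cox6b2* at most 5 beside 2169 to 2750 of *Cox6b1*. *Cox7b2* and *Cox8c*, known from testis, had 0 counts in every library, which allows up to 0.348% of the *Cox7b* pair and 0.161% of the *Cox8a* pair in a library. With so few counts a difference between genotypes was not detectable for these 7 genes. The widely expressed partner *Cox4i1* had an estimate of 0.02 ± 0.10, and *Cox7a2l*, which is known for binding complexes III and IV together, one of 0.08 ± 0.11.

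*Cox7a2* was at 305, 317 and 280 CPM against 267, 265 and 375 CPM, so WT replicate 3 was above and the other WT libraries below every *Txnip*-/- library. Its estimate of -0.01 ± 0.12 (adjusted p = 0.988) was 0.17 without WT replicate 3 (adjusted p = 0.322) and -0.32 with a term for WT replicates 1 and 2 (adjusted p = 0.114).

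**Figure D4:**
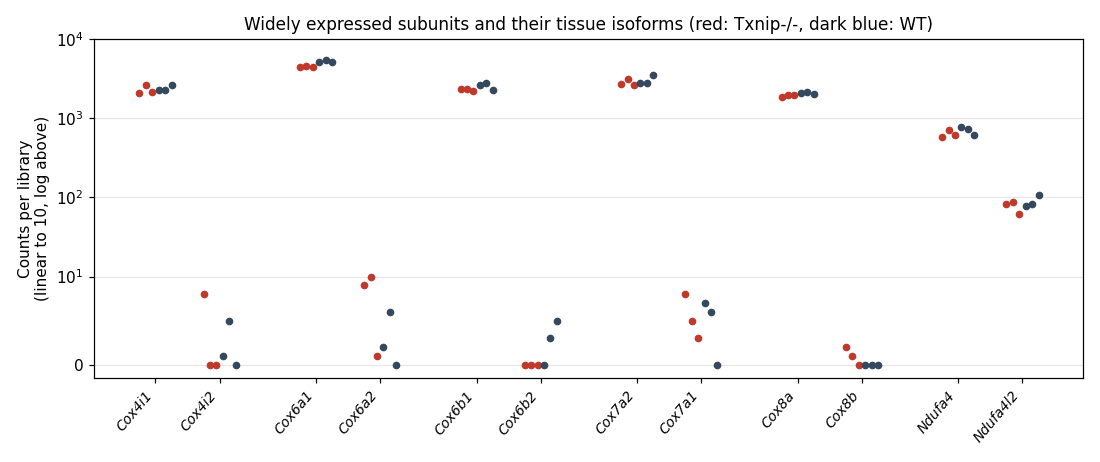
Counts per library (y axis, linear to 10 and logarithmic above) of the widely expressed subunits and their tissue isoforms, with 3 *Txnip*-/- (red) and 3 WT (dark blue) libraries each. The isoforms of complex IV stay at 10 counts or fewer far below their partners, while *Ndufa4l2* reaches 108 beside 570 to 771 for *Ndufa4*.

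*Ndufa4l2* was the exception among the minor isoforms. It is known as a hypoxia-inducible relative of *Ndufa4*, itself named for complex I but known to sit in complex IV. *Ndufa4l2* was at 9.16, 8.87 and 6.52 CPM against 7.495, 7.81 and 11.4 CPM (-0.12 ± 0.29), and *Ndufa4* at 63.6, 71.7 and 65.8 CPM against 75.0, 70.02 and 65.3 CPM (-0.06 ± 0.11). The minor form made up 9.02% to 14.9% of the pair. Its 3′ end overlaps *Shmt2* on the opposite strand, and whether the counting used strand is not given in the sources used here.

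Complex V had 17 genes with a median of -0.05, of which 11 were lower and 6 higher, and none passed the unadjusted threshold. Of the 5 genes of the catalytic head 3 had higher and 2 lower estimates. *Atp5a1*, its alpha subunit, was at 339, 327 and 319 CPM against 275, 293 and 307 CPM, without overlap (0.17 ± 0.08, adjusted p = 0.456). *Atp5b*, the catalytic beta subunit, was at 428, 412 and 390 CPM against 391, 391 and 375 CPM (0.09 ± 0.08), and *Atp5d*, the delta subunit, at 163, 183 and 165 CPM against 154, 161 and 159 CPM (0.11 ± 0.09). *Atp5c1* and *Atp5e*, the gamma and epsilon subunits, had estimates of -0.05 and -0.04. The median of these 5 was 0.09.

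The peripheral stalk (*Atp5f1*, *Atp5h*, *Atp5j* and *Atp5o*) had a median of -0.09 and the membrane subunits e, f and g (*Atp5k*, *Atp5j2* and *Atp5l*) one of -0.12, with all 3 of the latter lower. *Atp5k* was at 75.7, 78.2 and 77.2 CPM against 84.9, 86.6 and 79.2 CPM (-0.12 ± 0.10) without overlap. *Atp5j*, with 1 of its promoter windows printed above, was at 75.7, 68.6 and 70.8 CPM against 94.5, 84.1 and 70.1 CPM (-0.21 ± 0.12, adjusted p = 0.547), with WT replicate 3 inside the *Txnip*-/- range. Near-identical copies in the annotation number 12 for *Atp5l*, 3 for *Atp5h*, 2 for *Atp5f1* and 1 each for *Atp5j*, *Atp5k* and *Atp5j2*. *Atp5o* was not placed in the annotation by symbol, so its copies were not searched. In the head *Atp5c1* has 2, and *Atp5a1*, *Atp5b*, *Atp5d* and *Atp5e* have 0. Counts of genes with copies can include reads of those. These role groups were formed after the values were seen, so the contrast between head and membrane part is a description. The part of the copies in it was not tested.

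The c ring, which turns as protons pass, is built from 1 mature protein encoded by 3 genes. *Atp5g3* gave most of its transcripts, 75.4% ± 1 in *Txnip*-/- and 75.9% ± 1.9 in WT libraries (SD, n = 3), *Atp5g1* gave 12.2% ± 1.8 and 11.2% ± 0.4, and *Atp5g2* gave 12.4% ± 1 and 13% ± 1.5. The genotypes differed by less than the larger of the replicate SDs for each of the 3 genes, although for *Atp5g1* the difference was above the WT SD. *Atp5g3* was at 493, 477 and 472 CPM against 506, 493 and 443 CPM (0.00 ± 0.08). *Atp5g1* and *Atp5g2* each have 2 near-identical copies elsewhere in the annotation, and their counts can include reads of those.

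*Atp5s* and *Atp5sl* carry the *Atp5* prefix but are not known as structural subunits, and they were the least abundant of complex V. *Atp5s* was at 2.90, 3.57 and 1.92 CPM against 5.65, 4.67 and 2.43 CPM, and its estimate of -0.60 ± 0.50 (adjusted p = 0.725) had an interval from -1.66 to 0.46, so these counts do not fix its direction. The groups overlapped through WT replicate 3.

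**Figure D5:**
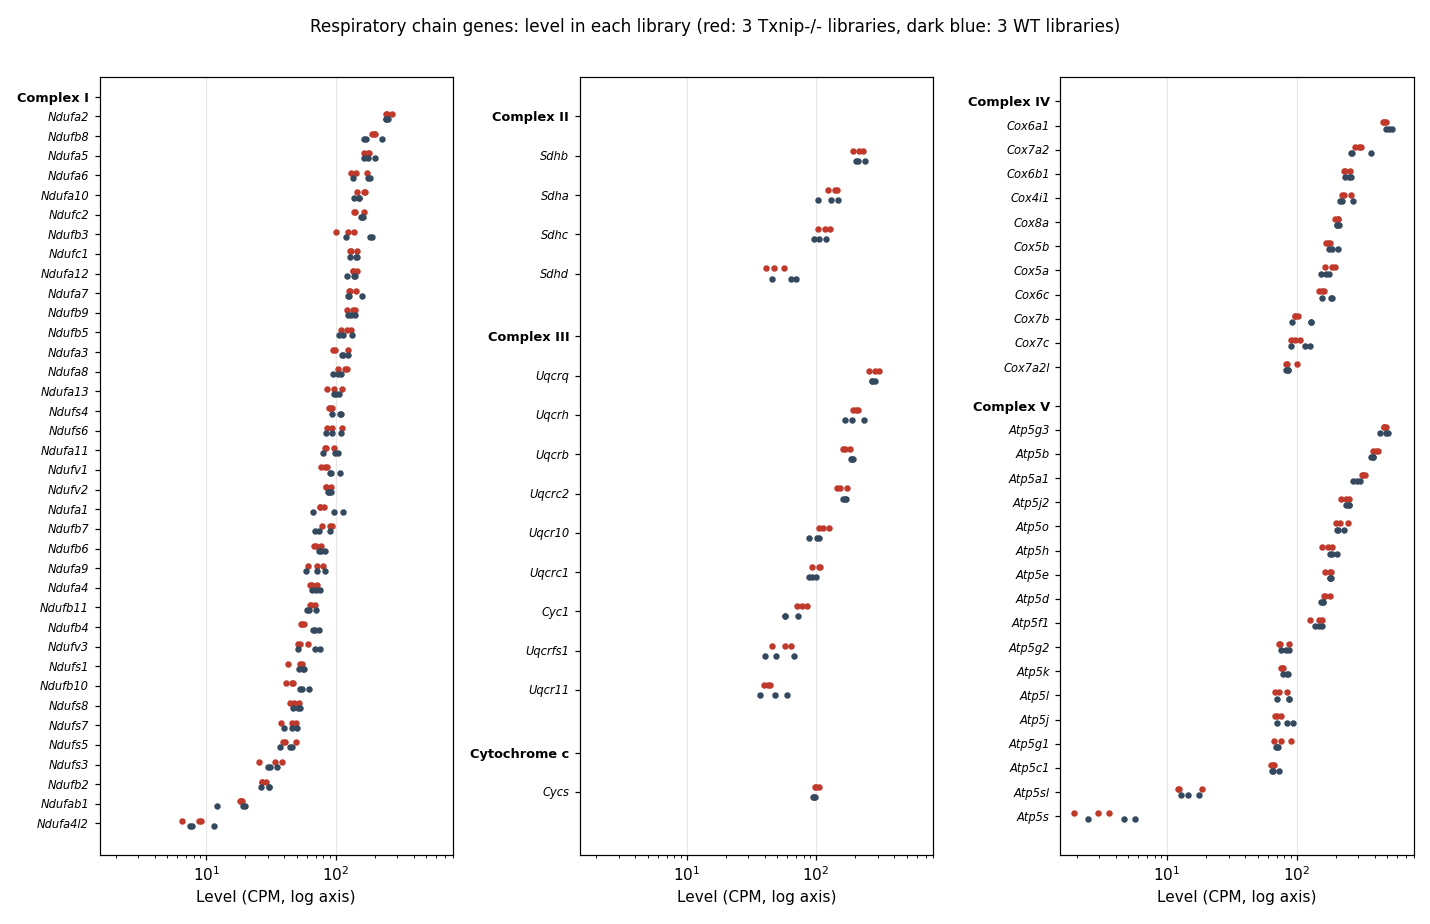
Level in CPM (x axis, logarithmic) of the tested respiratory chain genes (1 of them left out) in the 3 *Txnip*-/- (red) and 3 WT (dark blue) libraries, sorted by mean level within each complex. Levels run from *Atp5s* at 3.52 CPM to *Cox6a1* at 496 CPM on average, and the genotypes lie close to each other in nearly every row.

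The levels spread far more between genes than between genotypes. Means over the 6 libraries reached 496 CPM for *Cox6a1*, 481 CPM for *Atp5g3*, 398 CPM for *Atp5b*, 310 CPM for *Atp5a1* and 301 CPM for *Cox7a2*. The lowest tested genes were *Atp5s* (3.52 CPM), *Ndufa4l2* (8.55 CPM), *Atp5sl* (14.6 CPM) and *Ndufab1*, the mitochondrial acyl carrier protein (17.8 CPM). *Cox6a1* and *Atp5g3* overlapped across libraries, as did *Atp5a1* and *Cox7a2*. *Cox6a1*, *Cox5a* and *Uqcr11* each have 1 near-identical copy in the annotation, *Ndufab1* has 2 and *Uqcrb* has 3. The 3′ ends of *Ndufa2* and *Cox5a* overlap *Tmco6* and *Gm26631* on the opposite strand. Counts of all these genes can include reads of the copies or overlapping genes. The median level by complex was 88.8 CPM for complex I, 121.7 for complex II, 106.3 for complex III and 145.9 for complex V.

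WT replicate 3 differed from the mean of the other WT libraries by more than 1.3-fold in 15 of the 80 genes (18.8%), 10 lower and 5 higher, against 29.2% of all tested genes. Without that library 3 genes were called, all lower: *Ndufb3*, *Ndufa1* (-0.44, adjusted p = 0.0344) and *Cox7b* (-0.39, adjusted p = 0.0353), beside 3.08% of all tested genes. *Ndufa1*, an accessory subunit encoded on the X chromosome, was at 82.0, 75.2 and 75.7 CPM against 97.05, 113 and 67.2 CPM with all libraries (-0.26 ± 0.15, adjusted p = 0.551). By a chi-square distance, given under the processing, WT replicate 3 lay nearer to every *Txnip*-/- library than to the other WT libraries. This held over all genes averaging at least 10 counts and over the 80 alone. The *Rn45s* share of WT replicate 3 was at the level of the *Txnip*-/- libraries, and the part of that share in these values was not tested.

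Genes that build or supply the chain were described from lists, as counts and medians. For comparison, 1.55% of all tested genes were called and 11.5% had an unadjusted p under 0.05. Of 48 assembly factors tested, 0 were called and 2 had an unadjusted p under 0.05 (*Uqcc1*, a complex III assembly factor, at 0.48, and the complex I factor *Ndufaf4* at 0.32 on the log2 scale), with a median of -0.03. Other electron carriers and ATP synthase accessory genes (13 tested, median -0.04) had 0 called and 1 at the unadjusted threshold, *Chchd4* of intermembrane space import (0.46). Citric acid cycle and pyruvate entry genes (20, median 0.02) had 0 by either threshold.

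Among 18 regulators of mitochondrial gene expression (median 0.02) 0 were called and 1, *Lrpprc*, which stabilises mitochondrial mRNAs, had an unadjusted p under 0.05 (-0.40). It was at 81.2, 64.3 and 67.4 CPM against 100, 116 and 64.7 CPM, with WT replicate 3 near the *Txnip*-/- libraries. *Nrf1* itself was at 33.2, 32.6 and 37.1 CPM against 32.5, 36.2 and 39.4 CPM (-0.07 ± 0.15), *Tfam*, the mitochondrial transcription factor, had an estimate of 0.22 ± 0.15, and *Ppargc1a*, a coactivator of these genes, had 0 to 6 counts and was not tested.

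Of 77 mitochondrial ribosomal protein genes (median 0.03) 0 were called, and 5 had an unadjusted p under 0.05 beside 11.5% of all tested genes. Of the 5, 3 had lower estimates, among them *Mrpl9* (-0.69), and 2 higher ones, *Mrps22* (0.46) and *Mrpl3* (0.35). Of 23 import genes (median 0.06) 0 passed either threshold. Of 81 cytosolic ribosomal protein genes (median 0.03), 52 had higher and 29 lower estimates. An unadjusted p under 0.05 was found for 8 of the 81, beside 11.5% of all tested genes. Of these 8, 7 were higher with *Rpl7l1* (0.34) first by p, where 5.48% of all tested genes passed with a higher estimate. Of the 81, 1 (1.23%) fell by the adjusted p, beside 1.55% of all tested genes called in either direction. That gene, *Rps3a1*, was at 3682, 4021 and 3903 counts against 6344, 6675 and 6526 counts (-0.65 ± 0.08, adjusted p = 0.000108). It was apart in every library. The 13 subunits encoded in mitochondrial DNA had no row matching their symbols and were not analysed here. DESeq2 and limma-trend gave the same number of called genes in each of these 7 lists. Without WT replicate 3 the called genes were 5 cytosolic ribosomal, 0 among the other carriers and 1 in each of the remaining lists. In that setting 3.08% of all tested genes were called. With no filter on low counts, 1 assembly factor and 1 regulator were called, beside 222 lower and 124 higher among all 16763 genes then tested.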

How the data were processed

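LSEC RNA was sequenced in 3 libraries of each genotype. The deposited values are whole-number counts per gene that the authors made with Bowtie2 and Bedtools, unique as well as multiple alignments included, and did not normalize. The labels name mm10, but versions, annotation and use of strand are not given in the sources used here. No column of per-sample values was without a sample, and 44 rows that repeat a symbol were kept apart.

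Genotypes were compared with the quasi-likelihood test of edgeR 4.0.16 (R 4.3.3; filterByExpr, TMM, glmQLFit and glmQLFTest). Genotype was the only term, and p-values were adjusted over 11583 genes by Benjamini-Hochberg. All p-values are two-sided. Standard errors and intervals were computed from each estimate with its F statistic, and scripts were tested on simulated data. Genes were counted as called at an adjusted p under 0.05. DESeq2 1.42.0, limma 3.58.1 (limma-trend, prior count of 2), other scalings, filters and thresholds, a replicate block, each library left out, the *Rn45s* row left out and a term for WT replicates 1 and 2 were alternatives. Deviations of same-numbered libraries correlated at -0.030, 0.017 and -0.047, so the numbers did not pair them. Between WT replicates 1 and 2 the chi-square over genes, divided by its degrees of freedom, was 3.93, above sampling noise, and they were counted as 2 libraries. WT replicate 3 was at 37 and 40.2 from WT replicates 1 and 2. From *Txnip*-/- replicates 1, 2 and 3 it was at 13.3, 14 and 17.1, so it lay nearer to the other genotype. Over the respiratory chain genes alone these values were 18.7 and 20.9 against 10.9, 9.36 and 11.9.

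The genes and all lists were chosen with earlier results of these data known. Genes named are, per complex, those with the smallest unadjusted p under 0.05, the most abundant, and the highest and lowest estimate, with all *Sdh* genes, *Cycs*, *Cyc1* and the isoform pairs. In the related lists they are the called genes. Other genes were named after their values were seen. The values of 1 tested gene enter the totals only and are not reported here. Sums by complex under other scalings were added after seeing the data.

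GENCODE M21 (GRCm38) gave positions for 86 of 87 genes by symbol. With BLAST+ 2.17.0 the last 300 bases were compared with the annotation, where 25 of the 86 had another gene's transcript at least 95% identical over at least 75 bases, and 9 overlapped a gene on the opposite strand. Of the lists, neutrophil, lymphocyte and erythroid markers had no tested gene (at most 1.63, 0.635 and 5.02 CPM in sum), and cholangiocyte markers had 1, which was not called.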

Additional observations from a re-analysis of the deposited data

How the results depend on the processing

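All genes called lower and higher numbered 113 and 66 (63.1% lower). They were 155 and 112 with DESeq2, 150 and 36 (80.6% lower) with no normalization factors, 222 and 124 with no filter on low counts, 102 and 98 (51.0% lower) with a term for WT replicates 1 and 2, and 68 and 40 with the replicate block, and ranged over 60 to 230 and 29 to 137 when 1 library was left out, the highest being without WT replicate 3. Respiratory chain genes called numbered 0, except for 1 lower with no filter and 0 to 3 lower (0 higher) when 1 library was left out. At the unadjusted threshold they were 4 lower and 1 higher, 13 and 0 without normalization factors, 7 and 1 with no filter, 9 and 3 with the term for WT replicates 1 and 2, 3 and 2 with DESeq2, and ranged over 3 to 10 lower and 0 to 5 higher when 1 library was left out, highest without WT replicate 3. With no filter, 9.41% of the respiratory chain genes then tested passed the unadjusted threshold, against 10.2% of all tested genes. The count with the term for WT replicates 1 and 2 rests on WT replicate 3 alone for WT, so it is not set beside a share. The replicate block called no respiratory chain gene.

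Without normalization factors the median of all tested genes moved to -0.08 (log2). The median of the respiratory chain genes was then -0.126 (-0.135, -0.131 and -0.133 for complexes I, IV and V), with 65 lower and 15 higher, and *Atp5g3* (-0.084), *Cox4i1* (-0.053), *Cox7a2l* (-0.003), *Cycs* (-0.012), *Ndufa2* (-0.026) and *Uqcrq* (-0.047) turned negative. With the term for WT replicates 1 and 2, which sets *Txnip*-/- libraries against WT replicate 3, the median was -0.019 and that of complex V 0.032, and *Atp5s* (0.202), *Cox4i1* (-0.177), *Cox7b* (0.106), *Ndufa4* (0.039), *Ndufb3* (0.015), *Sdha* (-0.135), *Sdhd* (0.088) and *Uqcrq* (-0.006) turned sign. *Cox7a2* turned to 0.009 with limma-trend and also with the replicate block, and *Atp5g3* to -0.006 with no filter. The share of counts held by these genes had a ratio of 0.982 without *Rn45s*.

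When 1 library was left out, medians ranged from -0.074 to -0.020 over all genes of the chain, -0.093 to -0.029 for complex I, -0.055 to 0.092 for II, 0.004 to 0.065 for III, -0.099 to -0.040 for IV and -0.079 to -0.017 for V. Estimates near 0 turned sign: *Atp5g3* (-0.056 to 0.037), *Cox4i1* (-0.043 to 0.136), *Cox7a2* (-0.095 to 0.175), *Cox7a2l* (-0.008 to 0.124), *Ndufa4l2* (-0.233 to 0.095), *Sdha* (-0.046 to 0.210), *Sdhb* (-0.098 to 0.036) and *Uqcrq* (-0.035 to 0.099). The causes were not tested. The tissue isoforms of complex IV had at most 10 counts in a library, too few to compare the genotypes.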
